A study of Mus musculus with 6 samples.

Results

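The limb bud transcription factors Tbx5, Tbx4, Pitx1, Lmx1b, Hand2, Tbx2, Tbx3, Alx4, Prrx1 and Msx1 were followed in whole mouse embryos with and without a functional Smchd1 gene. They are 10 of the 24207 loci of the deposited expression table and were found by their gene symbols, by a rule that uses no measured value. The members were, however, chosen with earlier results of these data known. All 10 were listed at 1 locus each, all had enough aligned reads for the authors' program to test them, and all passed the level of 1 FPKM used here, where FPKM is the fragments per kilobase of transcript, scaled to the number of mapped fragments. The RNA came from 6 male embryos at embryonic day 9.5 (E9.5), 3 of them Smchd1+/+ (wildtype) and 3 Smchd1MommeD1/MommeD1 (mutant). MommeD1 is a nonsense allele made with the chemical mutagen ENU, and both genotypes came from natural matings of heterozygous parents. The labels give the strain of all 6 embryos as C57Bl6/J x FVB/n, whereas the study's text names another strain as the backcross background of the RNA-seq embryos, and the difference could not be resolved here. The table holds 1 FPKM value per genotype, computed over its 3 embryos together, so there was no spread between embryos, no test across embryos and no read depth. Smchd1 itself stood at 2.12 FPKM in the mutant and 34.0 FPKM in the wildtype column, which is the direction that the genotype labels give.

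A limb bud is a pocket of mesenchyme under ectoderm. Tbx5 starts the forelimb bud, while Pitx1 and Tbx4 act in the hindlimb bud, and the other members then set its axes: Lmx1b specifies dorsal mesenchyme, Hand2 acts posteriorly upstream of Shh, Alx4 acts anteriorly, Tbx2 and Tbx3 mark the bud margins, Prrx1 is found throughout the mesenchyme, and Msx1 lies under the apical ridge. At E9.5 the forelimb bud has emerged and the hindlimb bud is only beginning to form. None of these genes is used in the limb alone: Tbx5 and Hand2 serve the heart, Tbx4 the allantois and lung mesenchyme, Lmx1b the roof plate and the midbrain-hindbrain border, and Pitx1, Alx4, Prrx1 and Msx1 the face and pharyngeal arches. In whole embryos the limb bud share of each value is not known, and fewer cells of a type cannot be told apart from less RNA per cell.

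The sequences just upstream of 2 members are shown because, in RefSeq, a second gene starts inside each of them. This bears on reading the values below. They are the 250 bases before the RefSeq start on GRCm38.p6, the build also called mm10. Lmx1b (chr2:33641099-33641348, minus strand) and Hand2 (chr8:57320733-57320982, plus strand) each face a gene that starts in the opposite direction inside the window, C130021I20Rik and Hand2os1, and capitals mark the bases between the 2 starts.

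Lmx1b: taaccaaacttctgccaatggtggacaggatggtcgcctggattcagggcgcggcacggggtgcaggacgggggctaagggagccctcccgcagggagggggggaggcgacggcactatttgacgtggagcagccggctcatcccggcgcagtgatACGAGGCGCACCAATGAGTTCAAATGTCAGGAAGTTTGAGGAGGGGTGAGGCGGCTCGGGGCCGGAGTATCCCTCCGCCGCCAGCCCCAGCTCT
Hand2: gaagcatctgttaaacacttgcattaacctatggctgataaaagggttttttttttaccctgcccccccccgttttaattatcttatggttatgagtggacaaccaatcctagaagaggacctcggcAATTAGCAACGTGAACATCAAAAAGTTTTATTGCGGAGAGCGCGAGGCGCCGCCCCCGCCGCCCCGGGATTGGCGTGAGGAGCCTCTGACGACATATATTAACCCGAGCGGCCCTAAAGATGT

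The RefSeq starts of Lmx1b and C130021I20Rik had 94 bases between them, and those of Hand2 and Hand2os1 123 bases. GENCODE places these genes otherwise: its Lmx1b starts at chr2:33640511, and its Hand2os1 reaches to chr8:57324233, across Hand2. The spacings hold for RefSeq only. Of 32851 RefSeq promoters searched in the same way, 7.70% held an opposite start in the window. The Lmx1b window held 19 CpG dinucleotides and the Hand2 window 15, against a median of 6 over all promoters. The observed over expected CpG ratio was 0.74 for Lmx1b and 0.99 for Hand2, beside a median of 0.37. Motifs were searched on both strands. The TATA box was read as TATAAA, which 12.4% of all promoters hold. The GC box was read as GGGCGG, found in 32.7% of promoters. A bicoid-type homeodomain site, the kind bound by Pitx factors, was read as TAATCC and found in 6.25% of promoters. A core T-box site was read as AGGTGT and found in 11.8% of promoters. None of these motifs overlaps another in the windows shown. The Lmx1b window held none of them, and the Hand2 window held 2 GC boxes, both in the reverse orientation. Of the other members, Prrx1, Msx1 and Tbx4 had a RefSeq entry in the table used, and that of Tbx4 starts inside the deposited locus, so it is not shown.

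Between the genotypes, the hindlimb and forelimb genes had nearly equal values, whereas Lmx1b, Tbx2, Prrx1 and Alx4 had higher values in the mutant. Differences are given as log2 ratios of mutant over wildtype after 0.1 FPKM was added to each value, and a ratio past 1.5-fold (0.58 on the log2 scale) is called past the fold, with no claim of significance. Lmx1b was the 1 member higher past the fold, and 0 members were lower past it. Over the 12463 loci that averaged 1 FPKM or more, 3.51% were higher and 1.47% lower past the fold, 4.98% in either direction. The ratio was above 0 for 8 members and below 0 for 2, while 48.2% of all these loci were above 0. The members' median was 0.15, against -0.01 over all these loci, whose central 80% ran from -0.23 to 0.29. Since low loci scatter more, each member was also set beside the loci whose mean lay no more than 25% above or 20% below its own: 4 members were above the central 80% of their own comparison loci, 6 within and 0 below. That range describes loci and is no measure of error between embryos.

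**Figure D1:**
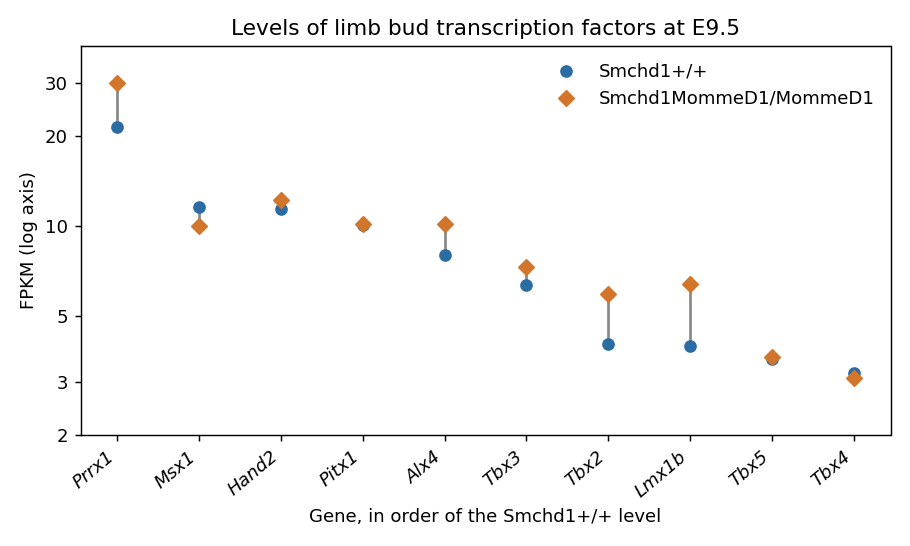
FPKM of each limb bud transcription factor (log axis) in Smchd1+/+ embryos (circles) and Smchd1MommeD1/MommeD1 embryos (diamonds), 1 value per genotype and no error bars, since the values were pooled over 3 embryos. Prrx1 stood highest in both genotypes (21.4 and 30.1 FPKM) and Tbx4 lowest (3.24 and 3.10 FPKM), and the symbols of Tbx5, Tbx4 and Pitx1 nearly coincide.

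The forelimb gene Tbx5 (chr5:119795840-119885218), a T-box factor also needed in the heart, had 3.65 FPKM in mutant embryos and 3.59 FPKM in wildtype, a log2 ratio of 0.02. Its paralogue Tbx4 (chr11:85886380-85916097), the hindlimb T-box factor, had 3.10 FPKM in mutant embryos and 3.24 FPKM in wildtype, a log2 ratio of -0.06. The homeodomain factor Pitx1 (chr13:55825048-55837002), which acts upstream of Tbx4 in the hindlimb, had 10.1 FPKM in both genotypes and a log2 ratio of 0.01. All 3 values lay well inside the central 80% of loci of like level, which ran from -0.29 to 0.39 for Tbx5, from -0.29 to 0.42 for Tbx4 and from -0.21 to 0.25 for Pitx1.

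The mean log2 ratio of the hindlimb genes Tbx4 and Pitx1 was -0.03 and that of Tbx5 was 0.02, so hindlimb minus forelimb came to -0.05. Taken singly, Tbx4 minus Tbx5 was -0.09 and Pitx1 minus Tbx5 was -0.02. The levels kept nearly the same proportions in both genotypes. Tbx4 stood at 0.85 times the Tbx5 level in mutant and 0.90 times in wildtype embryos, and Pitx1 at 2.77 and 2.80 times the Tbx5 level. With 1 value per genotype these proportions have no error, so a small shift of forelimb against hindlimb was not measurable. The other 7 members had a median log2 ratio of 0.33.

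Lmx1b (chr2:33560974-33641047), a LIM homeodomain factor of dorsal limb mesenchyme, had 6.38 FPKM in mutant embryos and 3.97 FPKM in wildtype. Its log2 ratio of 0.67, or 1.59-fold, was the highest of the 10 members and lay above the range of loci of like level, -0.25 to 0.32. C130021I20Rik, a noncoding gene classed as antisense by GENCODE that starts head to head with it, had 5.78 FPKM in mutant embryos and 3.36 FPKM in wildtype and a log2 ratio of 0.77, also past the fold. The next named gene on the other side, Zbtb43, lay 92412 bp away and had 6.11 and 6.24 FPKM, a log2 ratio of -0.03. The libraries kept no record of strand, and the table draws the Lmx1b and C130021I20Rik loci 10 bp apart.

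Of the margin genes, Tbx2 (chr11:85832615-85842058) had 5.93 FPKM in mutant embryos and 4.03 FPKM in wildtype, a log2 ratio of 0.55 just under the fold and above its range of -0.25 to 0.35. Tbx3 (chr5:119670009-119684682), its close relative, had 7.28 and 6.33 FPKM and a log2 ratio of 0.20, inside its range of -0.23 to 0.27. Both are T-box repressors, and each lies beside a limb-type T-box gene. Between the deposited loci, which need not match the GENCODE genes, Tbx2 is 44321 bp from Tbx4 and Tbx3 is 111157 bp from Tbx5. Within the first pair the levels did not move in proportion: Tbx2 stood at 1.92 times Tbx4 in mutant and 1.245 times in wildtype embryos. Within the second pair the proportions were 1.99 and 1.76. Bcas3, the next named locus of the table on the far side of Tbx2 at 6556 bp, had a log2 ratio of -0.09. GENCODE also places the noncoding gene 2610027K06Rik on the opposite strand between them, and it was not analysed here. Tbx3 overlaps the antisense gene Tbx3os1 in GENCODE, Pitx1 overlaps Gm47071 and Prrx1 overlaps Gm20471. The deposited Tbx5 locus starts before the GENCODE gene and spans Gm43050, a noncoding gene on the opposite strand. Reads from such genes cannot be told apart without strand.

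Prrx1 (chr1:163245100-163314557), a paired-type homeodomain factor of limb and head mesenchyme, had the largest difference in level, with 30.1 FPKM in mutant embryos and 21.4 FPKM in wildtype. Its log2 ratio of 0.49 was under the fold but above its range of -0.19 to 0.19, which is narrow because loci at this level scatter little. Its paralogue Prrx2 had 37.5 and 36.8 FPKM, a log2 ratio of 0.03. Alx4 (chr2:93642434-93681339), a paired-type factor of the anterior bud, had 10.1 FPKM in mutant embryos and 8.01 FPKM in wildtype, a log2 ratio of 0.33 above its range of -0.21 to 0.26. Its relative Alx1 had 6.40 and 5.40 FPKM, a log2 ratio of 0.24. Ext2, which GENCODE overlaps with Alx4, had a log2 ratio of 0.13.

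Hand2 (chr8:57320983-57324517), a basic helix-loop-helix factor of the posterior bud and the heart, had 12.2 FPKM in mutant embryos and 11.4 FPKM in wildtype, a log2 ratio of 0.10 inside its range of -0.21 to 0.22. A locus with no symbol that ends 102 bp before Hand2, inside the span of Hand2os1, had 6.97 and 4.93 FPKM and a log2 ratio of 0.49 (it was picked out after its values were seen). Without strand, reads from Hand2os1 and Hand2 cannot be told apart where the genes overlap. Msx1 (chr5:37820491-37824585), a homeodomain factor of distal mesenchyme, had the lowest ratio of the members, with 10.0025 FPKM in mutant embryos and 11.6 FPKM in wildtype. Its log2 ratio of -0.21 lay at the lower edge of its range, -0.21 to 0.23. The antisense Msx1as is listed on the same stretch with 18.9 and 18.1 FPKM, a log2 ratio of 0.06, and its reads cannot be separated from those of Msx1 by strand. Msx2, the close relative of Msx1, had 12.3 and 13.3 FPKM and a log2 ratio of -0.11.

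**Figure D2:**
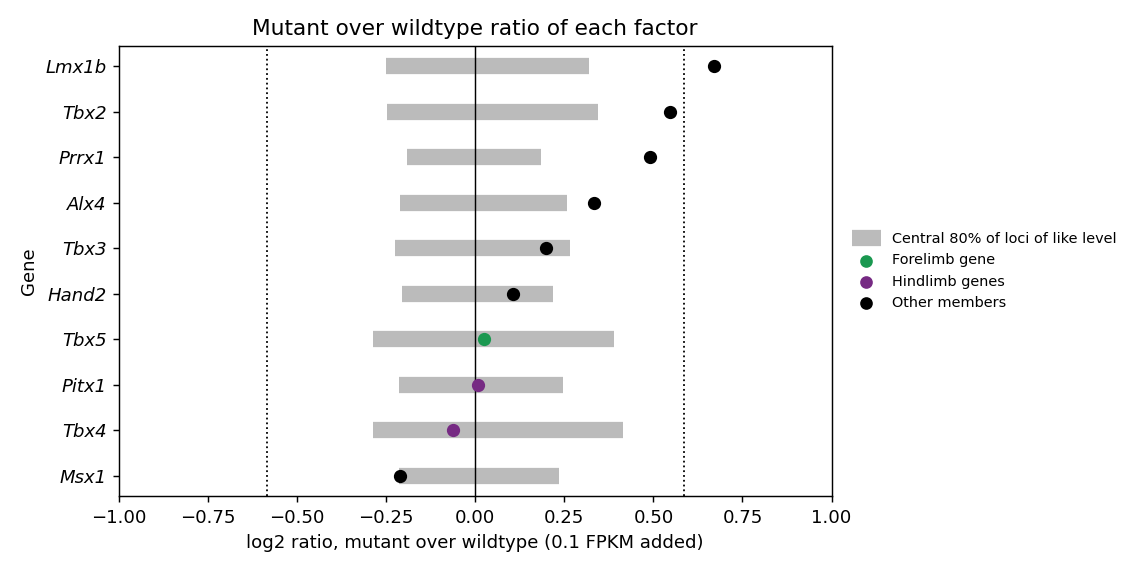
Log2 ratio of mutant over wildtype FPKM for each factor (points, 0.1 FPKM added to each value), over the central 80% of loci of like level (grey bars, mean no more than 25% above or 20% below its own), with dotted lines at 1.5-fold. Tbx5, Pitx1 and Tbx4 sit between -0.06 and 0.02, Lmx1b lies beyond the dotted line at 0.67, and Tbx2, Prrx1 and Alx4 lie between their bar and that line.

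In wildtype embryos the levels ran, from high to low, Prrx1, Msx1, Hand2, Pitx1, Alx4, Tbx3, Tbx2, Lmx1b, Tbx5 and Tbx4. In mutant embryos Prrx1 was again first and Tbx5 and Tbx4 last, but Msx1 stood below Hand2, Alx4 and Pitx1, and Lmx1b above Tbx2. Several neighbours in this order were close, such as Tbx2 and Lmx1b in wildtype embryos (4.03 and 3.97 FPKM) or Alx4 and Pitx1 in mutant embryos (both 10.1 FPKM). Without a spread between embryos their order was not established. Summed over the members, the level was 98.9 FPKM in mutant embryos and 83.6 FPKM in wildtype.

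The members lie on 6 chromosomes, and the loci around them were read from the same table. Within 500 kb of a member there were 56 other named loci at the level of 1 FPKM, with a median log2 ratio of 0.04. Of these, 4 (7.14%) were higher and 1 (1.79%) was lower past the fold, beside 3.51% and 1.47% of all loci. The higher ones were C130021I20Rik at Lmx1b and 3 genes between 413495 and 495317 bp from Pitx1, namely the proneural gene Neurog1 (log2 ratio 0.84), the chemokine gene Cxcl14 (0.89) and Mxd3 (0.72). The lower one was Fmo1 near Prrx1 (-0.60). Only C130021I20Rik among these was the nearest gene to a member, and the other 4 were looked at after their values were seen. So were 2 of the 6 nearby loci with no symbol: one 72717 bp from Lmx1b, on the side of C130021I20Rik, had 1.45 FPKM in mutant embryos and 0.64 FPKM in wildtype, a log2 ratio of 1.06, and the other, 182009 bp from Hand2, had 1.31 and 2.41 FPKM, a log2 ratio of -0.83.

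**Figure D3:**
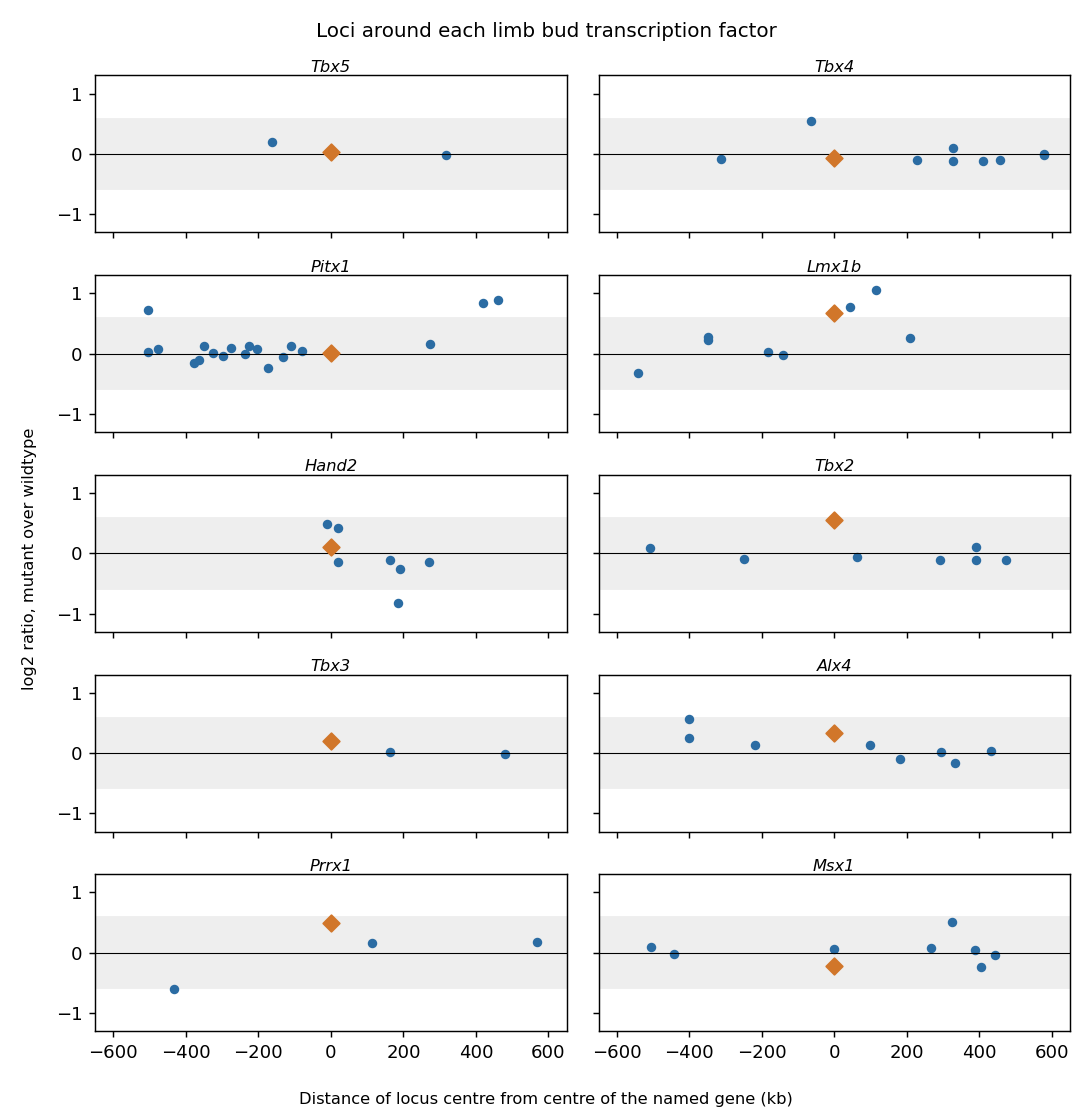
Log2 ratios of the loci that averaged 1 FPKM or more (circles) around each factor (diamond), by distance of their centres in kb, with the band of less than 1.5-fold in grey. At Lmx1b the adjacent C130021I20Rik lies above the band with it, while the loci next to Tbx5, Tbx4, Pitx1, Tbx3 and Prrx1 mostly lie within it.

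Other genes of the limb bud were read from lists by role. Counts past the fold in these lists stand beside 3.51% higher and 1.47% lower over all loci. Among 27 further transcription factors of limb mesenchyme, 26 reached 1 FPKM, 4 were higher and 0 lower past the fold, and the median log2 ratio was 0.09. The 4 were Lhx9 (5.55 FPKM in mutant, 2.31 in wildtype, log2 ratio 1.23), Shox2 (3.13 and 1.41, 1.10), Twist2 (12.3 and 7.83, 0.64) and Lhx2 (20.3 and 13.1, 0.63). Lhx2 and Lhx9 are LIM homeodomain factors that relay ridge signals, and Shox2 patterns the proximal limb. In whole embryos the limb bud share of these values is not known. The most abundant factors of the list showed no such difference: Pbx2 had a log2 ratio of 0.10, Twist1 of 0.09 and Meis2 of 0.03. Tbx15, a T-box factor of limb and trunk mesenchyme, was below 1 FPKM on average (1.53 and 0.39 FPKM) and was picked out after its values were seen.

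The signalling genes of limb mesenchyme all stayed within the fold. Of 16, all reached 1 FPKM, 4 had a ratio above 0 and 12 below 0, beside 48.2% of all loci above 0, and the median was -0.09. Fgf10, the mesenchymal signal that drives bud outgrowth downstream of Tbx5 and Tbx4, had 2.68 FPKM in mutant embryos and 3.07 FPKM in wildtype, a log2 ratio of -0.19. Shh, the posterior signal downstream of Hand2, had 8.22 and 7.59 FPKM, a log2 ratio of 0.11, and Grem1 had 2.16 and 2.33 FPKM, a log2 ratio of -0.11. Shh is also made in notochord and floor plate, so its value is not that of the limb alone. The most abundant members, Gas1, Ptch1 and Fgfr1, had log2 ratios of 0.25, -0.23 and -0.0023. Fgf10, Shh and Grem1 were singled out for their place beside Tbx5, Tbx4 and Hand2, after their values were seen.

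Of 16 genes of limb ectoderm and apical ridge, 14 reached 1 FPKM and 0 were past the fold. The log2 ratios of the 14 ran from -0.48 to 0.58, with a median of -0.04. They were above 0 for 6 and below 0 for 8, beside 48.2% of all loci above 0. Their most abundant members, Fgfr2, Epha4 and Sp8, had log2 ratios of -0.04, 0.17 and -0.26. Wnt7a, the dorsal ectoderm signal that induces Lmx1b, had 4.61 FPKM in mutant embryos and 3.25 FPKM in wildtype, a log2 ratio of 0.49 under the fold. A link between the Wnt7a and Lmx1b values was not tested, and the limb bud share of either is not known. Wnt7a too was singled out after its values were seen. The ridge signal Fgf8, picked out in the same way, had 5.57 and 6.65 FPKM, a log2 ratio of -0.25.

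Genes expressed at hindlimb and forelimb levels of the body were compared beside Tbx4, Pitx1 and Tbx5. All 6 hindlimb-level genes had a ratio above 0, with 0 past the fold and a median of 0.43. The locus shared by Hoxd10 and Hoxd11 (10.2 and 6.74 FPKM) lay just under the fold at 0.58, while Hoxc10 had 0.25 and the locus shared by Hoxc9 and Hoxc6 had 0.21. The 7 loci of forelimb-level genes had 0 past the fold and a median of 0.06, with 4 ratios above 0 and 3 below. The locus shared by Hoxa3, Hoxa5 and Hoxa6 had 0.06, and that shared by Hoxd3 and Hoxd4 had -0.23. Of 2 Hoxb5 loci drawn on the same stretch, the more abundant had -0.53 and the other 0.41. The hindlimb-level list also holds Isl1, a LIM homeodomain factor of the hindlimb field (log2 ratio 0.35). Isl1 counts among the further mesenchyme factors too and was named outside the naming rule given below. The Hoxc9 and Hoxc6 locus counts in both the hindlimb-level and forelimb-level lists. The Hoxd10 and Hoxd11 locus counts again among the distal limb Hox genes. Hox genes are also expressed along the trunk and tail. Of the 6 distal limb Hox genes, 4 reached 1 FPKM, of which 2 were higher past the fold: Hoxd13 (4.01 and 2.45 FPKM, 0.69) and Hoxa11 (3.17 and 1.94 FPKM, 0.68). Hoxd9 had a log2 ratio of 0.13. Over the 6 lists of limb bud genes together, 70 loci reached 1 FPKM, with a median log2 ratio of 0.03. Of these 70, 6 (8.57%) were higher past the fold and 0 lower, beside 3.51% and 1.47% of all loci.

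Among 16 T-box genes, the family of Tbx2, Tbx3, Tbx4 and Tbx5, 9 reached 1 FPKM. Of these 0 were higher and 2 lower past the fold, beside 3.51% and 1.47% of all loci. T (Brachyury), a mesoderm factor of the tail bud, had 3.23 FPKM in mutant embryos and 7.75 FPKM in wildtype (log2 ratio -1.24). Tbx6, a factor of presomitic mesoderm, had 1.67 and 3.004 FPKM (-0.81). Both lower genes count again among the tail bud markers below, which were listed because earlier results had shown them to differ. The heart factor Tbx20 had a log2 ratio of -0.46. The 4 limb members thus spanned -0.06 to 0.55 in a family whose tail bud genes were lower. Among 8 relatives of the homeodomain and Hand members, 7 reached 1 FPKM and 0 were past the fold, beside 4.98% of all loci in either direction. Their median was 0.04, with Hand1 at -0.35.

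**Figure D4:**
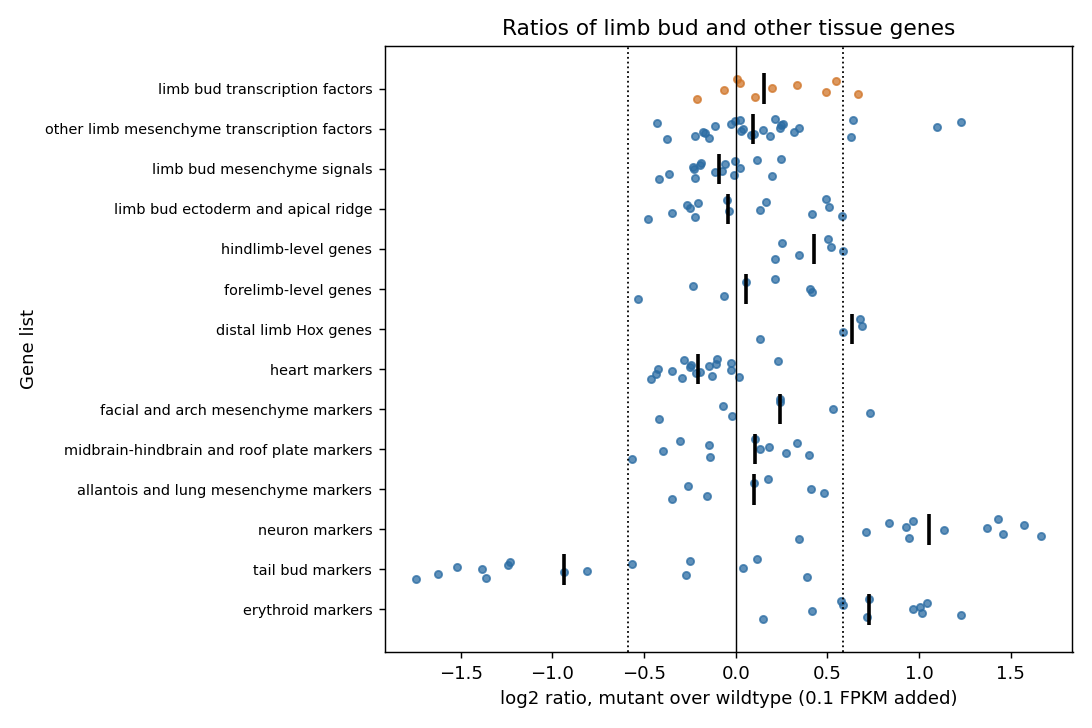
Log2 ratios of single genes (points) with the median of each list (bar), for loci averaging 1 FPKM or more, with dotted lines at 1.5-fold. The limb bud factors have a median of 0.15, limb signals and ectoderm genes lie around 0, neuron and erythroid markers lie to the right (1.05 and 0.73), and tail bud markers mostly to the left (-0.94).

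Marker lists of the other tissues that use the members, and of tissues that differed in this table, had the following values. Over all loci, 3.51% were higher and 1.47% lower past the fold. Of 18 heart markers, a tissue of Tbx5 and Hand2, 16 had a ratio below 0 with 0 past the fold, a median of -0.21 and a summed level of 1130 FPKM in mutant embryos and 1322 FPKM in wildtype; Myl7 had 317 and 425 FPKM, Actc1 284 and 338 FPKM and Myl4 130 and 143 FPKM. Of 11 facial and arch mesenchyme markers, 7 reached 1 FPKM and 1 was higher past the fold, Barx1 (10.8 and 6.46 FPKM, log2 ratio 0.73), with a median of 0.24 and a summed level of 31.5 and 25.4 FPKM. In the face list 4 ratios were above 0 and 3 below. The members named above for the face ran from -0.21 for Msx1 and 0.01 for Pitx1 to 0.33 for Alx4 and 0.49 for Prrx1. Of 11 midbrain-hindbrain and roof plate markers, which cover other sites of Lmx1b, 0 were past the fold and the median was 0.10 (-0.14 with a minimum of 5 FPKM), with a summed level of 54.2 and 54.1 FPKM. Lmx1a, the relative of Lmx1b in the roof plate, picked out after its values were seen, had a log2 ratio of 0.18, and the most abundant markers, Otx2, Msx3 and Gbx2, had -0.14, 0.33 and -0.40. Of 7 allantois and lung mesenchyme markers, sites of Tbx4, 0 were past the fold and the median was 0.10 (-0.25 with that minimum), with summed levels of 38.9 and 41.8 FPKM and log2 ratios of -0.35 for Hand1, -0.16 for Wnt2 and 0.41 for Vcam1.

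Neuron, tail bud and erythroid markers were listed because earlier results had shown these genes to differ, so their counts are a description only. Of 13 neuron markers, 12 reached 1 FPKM and 11 were higher past the fold, with a median of 1.05 and a summed level of 238 FPKM in mutant embryos and 110 FPKM in wildtype, Tubb3 being the most abundant (99.9 and 37.0 FPKM, log2 ratio 1.43). Of 15 tail bud markers, 9 were lower past the fold, with a median of -0.94 and a summed level of 75.1 and 112 FPKM. Their ratios were below 0 for 12 and above 0 for 3. The most abundant markers, Lfng (17.2 and 15.9 FPKM) and Dll1 (13.2 and 12.8 FPKM), had log2 ratios of 0.12 and 0.04. Cdx4 was the most abundant of the 9 lower ones (4.24 and 14.4 FPKM, log2 ratio -1.74). Of 11 erythroid markers, 8 were higher past the fold, with a median of 0.73 and a summed level of 12741 and 6040 FPKM, led by the embryonic globin gene Hba-x (4602 and 2274 FPKM, log2 ratio 1.02). No marker of these lists that reached 1 FPKM was at 0 in either genotype. The part of these tissues and of the face in the higher values of Lmx1b, Tbx2, Prrx1 and Alx4 was not tested.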

How the data were processed

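Reads of 100 bp, single end and without strand, came from whole-embryo RNA. According to the submitters' processing notes, the authors aligned them to mm10 with TopHat2 2.0.6 and Bowtie2 2.0.2 and computed FPKM values with Cufflinks and Cuffdiff 2.0.2. The annotation release is not given in the sources used here. The deposited table gives 1 FPKM per locus and genotype, pooled over 3 embryos. The columns were assigned to genotypes from the study's own description of this table, and the level of Smchd1 was checked. The table also holds the authors' fold change, test statistic, p-value, q-value and call for each locus, none of which was used. It holds no counts, so depth and counting error are unknown, and 1 value per genotype allows no test.

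Log2 ratios were computed with 0.1 FPKM added to each value, over loci averaging 1 FPKM or more, in Python 3.11.15 with pandas 2.3.3 and numpy 2.4.6, and the script was tested on simulated data. Named genes were the 10 members, the genes of each list past 1.5-fold (of neuron, tail bud and erythroid markers the most abundant such gene), the 3 most abundant genes of a list (not of neuron and erythroid markers), and the nearest named gene on each side. Genes named outside this rule are marked where they appear. The members and lists were chosen with earlier results of these data known, and 1 gene of the lists is not reported here. The listed genes Foxf1, Map2 and Ahsp were not analysed here, and none of these enters a count. Upstream sequences came from RefSeq (GRCm38.p6), with 5 of 10 members matched, and overlaps from GENCODE on the same build.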

Additional observations from a re-analysis of the deposited data

How the results depend on the processing

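The alternatives were a pseudocount of 0 or 1 FPKM, centring on the median locus, rescaling to the same total over all loci or over named loci of at least 200 bp, a minimum mean of 0.1 or 5 FPKM or none, and, for the fold, a lower one (25% higher or 20% lower) or 2. No paired analysis was possible because each genotype has 1 pooled value, and for the same reason no embryo could be left out. Hindlimb minus forelimb was -0.05 with a pseudocount of 0 FPKM and -0.04 with a pseudocount of 1 FPKM. Centring and rescaling cancel in this difference, apart from the pseudocount, and so could not change it. The members higher past the fold numbered 4 at the lower fold, 0 at a fold of 2, 0 with a pseudocount of 1 FPKM (Lmx1b then at 0.57) and 2 after rescaling to the same total (Tbx2 then at 0.59), and 0 were lower under any setting. In the other limb bud lists, 16 entries were higher at the lower fold, 2 at a fold of 2 and 2 with a minimum of 5 FPKM, and 7 were lower at the lower fold. In the marker lists of other tissues, 20 entries were higher and 9 lower past the fold. Of these, 11 higher ones were neuron and 8 erythroid markers, and all 9 lower ones were tail bud markers. Those lists were chosen because earlier results had shown them to differ, so the pooled counts are a description only. Over all these marker lists, 10 entries were higher at a fold of 2, 13 were higher with a minimum of 5 FPKM, 17 were lower at the lower fold, and 4 were lower with a minimum of 5 FPKM. The shares of all loci were not computed for the other folds, pseudocounts and minimums. Counts of members and list entries at those settings are therefore a description only. The sign turned for Pitx1 after rescaling over named loci (-0.01), for the limb ectoderm median after rescaling to the same total (5.8e-05), and, with a minimum of 5 FPKM, for the medians of the midbrain-hindbrain and roof plate list (-0.14) and the allantois and lung list (-0.25). The rescalings moved the median locus by -0.02 to 0.04 on the log2 scale. Differences of the size seen for Tbx5, Tbx4 and Pitx1 cannot be judged without values per embryo.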
